A study of Mus musculus with 13 samples.

Results

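Prodynorphin (Pdyn), neuropeptide Y (Npy) and neuronal pentraxin 2 (Nptx2) were all higher in mouse islet progenitors at day 4 of differentiation than at day 0, by 4.10, 2.21 and 2.86 on the log2 scale. They did not rise together. Pdyn and Nptx2 were higher by day 1, whereas Npy was higher only at day 4, and among the 3 only Pdyn stood near its day 4 level in adult islets. These genes belong to a set of 7 genes for secreted neuronal signals, completed by Adcyap1, Cartpt, Penk and Tac1, out of 16593 gene symbols on the array. The members were chosen by the measured levels themselves, because Pdyn, Npy and Nptx2 rose between day 0 and day 4, so the time course values of all members, and all differences of those 3 that use progenitor arrays, are given as a description with no test. For each symbol the probe with the highest mean over the 13 arrays was used.

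Transcript levels in mouse cells were read with Illumina bead arrays in 1 colour. The strain was given as C57BL/6, which was not checked for the embryonic stem cell line. Comparisons with that line could therefore also hold a difference in strain. The groups were embryonic stem cells (ES cells) of the W9.5 line, which served as the negative control (n = 2), purified pancreatic islet progenitors differentiated for 0 (n = 4), 1 (n = 3) or 4 days (n = 2), and islets of adults, the positive control (n = 2). The labels give no genotype, treatment or age, do not say how progenitors were purified, and do not say that replicates came from separate cultures or animals. The spread between arrays, on which every p-value rests, may therefore be technical. Adult islets are whole tissue and can hold nerve endings, glia and vessels besides endocrine cells. A lower level of a transcript in such bulk RNA cannot be told apart from fewer cells that make it.

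Most members are precursors that are cut inside dense core granules into short active peptides. Pdyn gives the dynorphins, opioid peptides that act on the kappa receptor Oprk1. Npy is a peptide of sympathetic nerves and is also made in developing and adult islets, where it restrains insulin release. Cartpt gives CART, a peptide of neurons and of islet cells. Tac1 gives substance P and neurokinin A, Adcyap1 gives PACAP, a peptide of islet nerves, and Penk gives the enkephalins. Nptx2 is not a peptide precursor: it is a secreted pentraxin that gathers AMPA-type glutamate receptors at synapses.

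Of the 7 members 6 had a named probe. Penk had none and was not analysed here. Levels are log2 intensities as the authors normalized them, and 7.24 was taken as the background level, below which a probe was not distinguished from unlit probes. A gene was tested if its probe exceeded that level on at least 2 arrays, which 5 members did. Adcyap1 did not: its probe lay between 6.93 and 7.08 on 12 arrays and at 7.25 on adult islet replicate 2. Between 44.1% and 46.4% of all probes were above background on each array. Arrays of one group correlated at 0.938 to 0.995, the lowest value being that of day 1 replicates 1 and 2. Defining markers bore out the split between ES cells and the pancreatic groups, but do not check the labels of the days or of progenitors. Of 13 endocrine markers 12 were above background on every array of each pancreatic group, against 0 on every ES cell array, and all 8 ES cell markers were above background on every ES cell array.

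Promoter sequences from RefSeq (build GRCm38.p6, 250 bases before to 50 after a transcript start) were at hand for 5 of the 7 members, Nptx2 and Penk being the exceptions. The windows of Pdyn and Npy, which rose to day 4, are shown beside those of Cartpt and Tac1, which were not higher at day 4 than at day 0. Capitals mark matches on either strand to TGACGTCA (the cyclic AMP response element, bound by CREB), to its core TGACG, to CAGATG (an E-box form bound by Neurod1 and related factors) or to CAGCTG (another E-box).
Pdyn, chr2:129699889-129700188, minus strand: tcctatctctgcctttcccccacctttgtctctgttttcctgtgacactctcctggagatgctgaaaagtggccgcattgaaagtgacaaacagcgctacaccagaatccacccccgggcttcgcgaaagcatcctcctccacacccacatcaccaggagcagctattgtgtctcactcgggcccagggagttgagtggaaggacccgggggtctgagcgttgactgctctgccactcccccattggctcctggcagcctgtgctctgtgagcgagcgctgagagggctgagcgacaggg
Npy, chr6:49822460-49822759, plus strand: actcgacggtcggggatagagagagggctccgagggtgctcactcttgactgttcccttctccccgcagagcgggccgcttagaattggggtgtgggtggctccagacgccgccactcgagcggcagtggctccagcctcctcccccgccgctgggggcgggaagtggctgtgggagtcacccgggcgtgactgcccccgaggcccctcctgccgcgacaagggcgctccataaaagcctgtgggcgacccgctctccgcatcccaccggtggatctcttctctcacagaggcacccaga
Cartpt, chr13:99900634-99900933, minus strand: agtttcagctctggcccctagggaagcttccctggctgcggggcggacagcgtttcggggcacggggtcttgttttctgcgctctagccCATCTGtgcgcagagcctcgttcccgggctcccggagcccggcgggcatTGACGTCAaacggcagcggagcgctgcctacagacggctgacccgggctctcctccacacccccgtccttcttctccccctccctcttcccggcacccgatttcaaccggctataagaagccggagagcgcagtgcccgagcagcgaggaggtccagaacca
Tac1, chr6:7554811-7555110, plus strand: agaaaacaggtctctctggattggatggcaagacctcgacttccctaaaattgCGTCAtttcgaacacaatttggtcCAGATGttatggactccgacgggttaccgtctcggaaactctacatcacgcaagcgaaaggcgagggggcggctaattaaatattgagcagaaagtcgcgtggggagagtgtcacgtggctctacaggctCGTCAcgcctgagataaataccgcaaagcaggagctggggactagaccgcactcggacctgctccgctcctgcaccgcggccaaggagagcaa

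The windows of Pdyn and Npy held none of the 4 motifs, and neither did the second Pdyn window. The Cartpt window held TGACGTCA, starting 112 bases before the transcript start, where TGACG necessarily matches on both strands as well. It also held CAGATG on the reverse strand, starting 161 bases before the start. The Tac1 window held TGACG on the reverse strand, 197 and 43 bases before the start, and CAGATG 173 bases before it. Both Adcyap1 windows, which overlap, held the same TGACG, 91 bases before the first start. Of 32851 mouse promoter windows of this length, 1.79% held TGACGTCA, 20.8% held TGACG, 17.2% held CAGATG and 16.3% held CAGCTG. The 3 shorter motifs are thus common, and a missing match says only that these letters are not in the window.

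**Figure D1:**
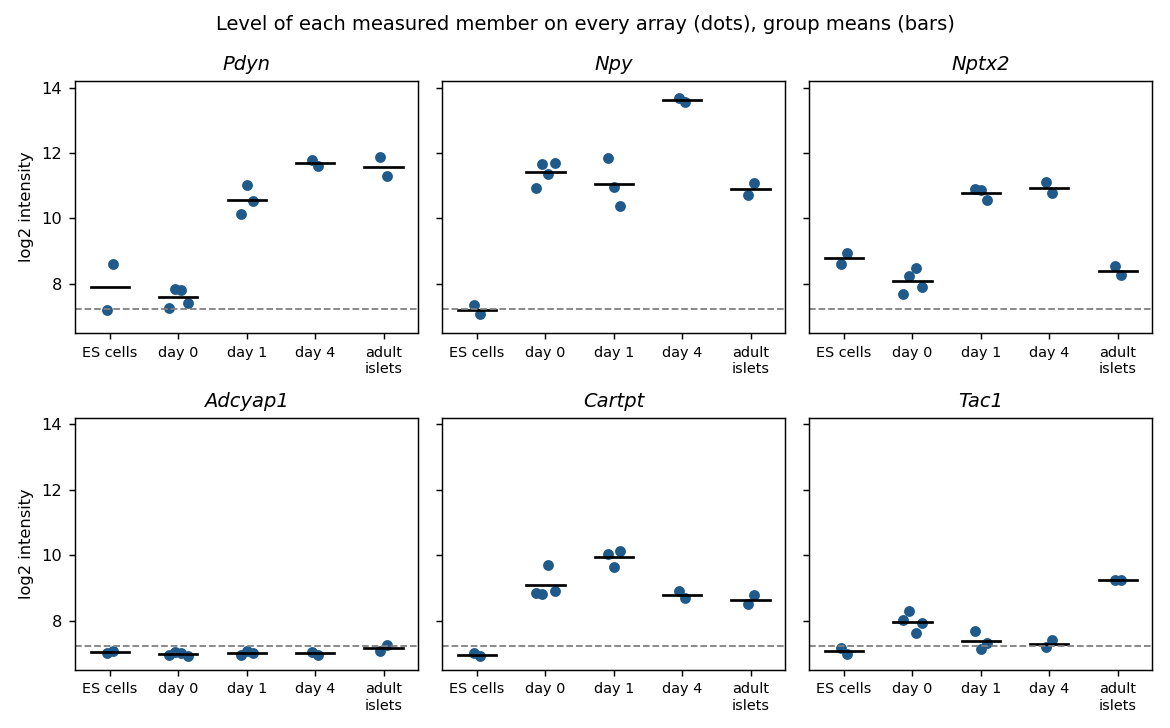
Log2 intensity (vertical axis) of the 6 members with a named probe on each of the 13 arrays, by group (horizontal axis). Dots are arrays, bars are group means and the dashed line is the background level of 7.24. Pdyn and Nptx2 are higher from day 1, Npy is highest at day 4, Cartpt at day 1 and Tac1 in adult islets, and Adcyap1 stays at background.

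On its brighter probe Pdyn differed most among the members between day 4 and day 0, though not on the mean of its probes (2.64, against 2.86 for Nptx2). The brighter probe stood at 7.25, 7.85, 7.82 and 7.43 on the day 0 arrays, close to background. At day 1 it was 10.14, 11.03 and 10.53, and at day 4 it was 11.79 and 11.59. The arrays of the 3 days did not overlap, and on this probe the larger part of the difference lay in the first day. Group means were 11.69 ± 0.14 (SD, n = 2) at day 4, against 7.59 ± 0.30 (n = 4) at day 0, a 17.2-fold difference on the intensity scale. Day 1, at 10.57 ± 0.45 (n = 3), was 7.89-fold above day 0, and day 4 was 2.18-fold above day 1. Of 19 measured genes on a list of activity genes and their regulators, Fos, Fosb and Bdnf were called lower at day 1 than at day 0, beside 4.37% of all genes called in either direction. The transcription factor Fos, whose mRNA marks recent stimulation or handling, was 8.32 ± 0.27 (n = 3) at day 1, against 12.07 ± 0.37 (n = 4) at day 0. The part of such changes in the Pdyn and Nptx2 values was not tested.

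A second Pdyn probe, ILMN_2767871, was dimmer but moved the same way as the brighter one, ILMN_2783873. It read 7.16 to 7.36 at day 0, 7.51 to 7.81 at day 1 and 8.34 and 8.56 at day 4. Again the arrays of the 3 days did not overlap. Its difference between day 4 and day 0 was 1.18 on the log2 scale, against 4.10 for the brighter probe. On the dimmer probe the smaller part of it lay in the first day, with 0.40 from day 0 to day 1 and 0.78 from day 1 to day 4. Both probes thus had day 0 lowest and day 1 between day 0 and day 4, but differed in the size and timing of the rise. They also differed in the order of day 4 and adult islets, which overlapped on either probe. The mean of both put day 4 above day 0 by 2.64 and day 1 above day 0 by 1.69.

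**Figure D2:**
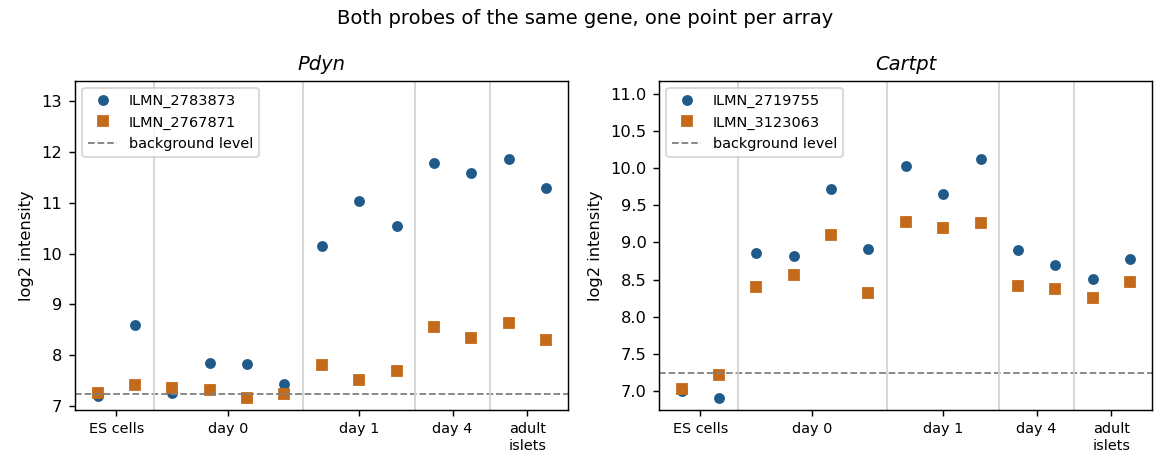
Log2 intensity (vertical axis) of both probes of Pdyn (left) and of Cartpt (right) on each array (horizontal axis, arrays in replicate order within a group). Circles are the brighter probe, squares the dimmer one and the dashed line is the background level. The Cartpt probes place the 5 groups in the same order, and the Pdyn probes do so except for day 4 and adult islets, which overlap. The dimmer Pdyn probe spans a smaller range.

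Npy followed another course. It was already bright at day 0, at 10.94, 11.65, 11.36 and 11.71, and at day 1 it read 11.84, 10.95 and 10.40, which overlaps day 0. At day 4 it was 13.69 and 13.56, above every other array of the series. The day 4 mean of 13.63 ± 0.10 (SD, n = 2) was 5.92-fold above the day 1 mean of 11.06 ± 0.73 (n = 3) and 4.63-fold above the day 0 mean of 11.41 ± 0.35 (n = 4). Day 1 differed from day 0 by -0.35 (log2), within the spread of its own arrays.

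Nptx2 had an early step and a plateau. It read 7.68, 8.24, 8.49 and 7.91 at day 0, then 10.91, 10.86 and 10.56 at day 1 and 11.11 and 10.77 at day 4. Day 1 and day 4 overlapped, and both lay above all day 0 arrays. Means were 10.78 ± 0.19 (SD, n = 3) at day 1 and 8.08 ± 0.36 (n = 4) at day 0, a 6.49-fold difference, while day 4 lay only 0.17 above day 1 on the log2 scale.

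Cartpt peaked at day 1. It read 8.85, 8.82, 9.71 and 8.92 at day 0, 10.03, 9.65 and 10.13 at day 1, and 8.90 and 8.70 at day 4. Day 4 lay below every day 1 array (-1.14 in the means) and overlapped day 0. Day 1 lay 0.86 above day 0, and its arrays overlapped because day 0 replicate 3 stood at 9.71. On the second Cartpt probe the day 1 arrays, 9.19 to 9.27, lay above all day 0 arrays, 8.31 to 9.10. Without day 0 replicate 3 and day 1 replicate 2 the difference on the brighter probe was 1.22.

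Tac1 ran the other way at low intensity. It read 8.01, 8.29, 7.61 and 7.91 at day 0, 7.67, 7.14 and 7.33 at day 1, and 7.19 and 7.41 at day 4. One of the day 4 arrays was thus below background. Day 4 differed from day 0 by -0.65 (log2) with no overlap between the arrays, and day 1 by -0.58 with overlap.

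The members' counts are set against the share of all 10382 tested genes that limma called at an adjusted p under 0.05 in either direction. For day 1 against day 0 the arrays did not overlap for 2 of the 5 tested members, Pdyn and Nptx2, and 4.37% of all genes were called. For day 4 against day 1 they did not overlap for Pdyn and Npy, both higher, and Cartpt, lower, and 1.55% of all genes were called. For day 4 against day 0 they did not overlap for Pdyn, Npy and Nptx2, higher, and Tac1, lower, and 11.4% were called. Arrays that do not overlap are a looser measure than a limma call, and the share of all genes without overlap was not counted. For this reason, and as the rise of 3 members chose the set, nothing is read from these counts.

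The comparison of adult islets with ES cells takes neither mean from progenitor arrays, although the fit estimated the spread behind its SE and p-values over all 13 arrays. Pdyn, Npy, Cartpt and Tac1 were higher in adult islets, and Nptx2 did not pass the test. These 4 of 5 calls stand beside 47.0% of all genes called in this comparison, and Cartpt and Tac1 could pass the intensity filter only through the groups in which they are high, so the count is no result about the set. Pdyn read 11.87 and 11.29 in adult islets, against 7.20 and 8.60 in ES cells. The arrays did not overlap, and the difference was 3.68 ± 0.42 (log2, SE, limma adjusted p = 2.85e-05), or 12.8-fold. These values are from the brighter probe. On the dimmer probe the difference was 1.13, or 2.19-fold, also with no overlap, and on the mean of the probes it was 2.41. Of the ES cell arrays only replicate 2 was above background on the brighter Pdyn probe. On the dimmer one both were just above it, at 7.26 and 7.42.

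Npy read 10.71 and 11.10 in adult islets, against 7.35 and 7.09 in ES cells, of which 1 array was above background. The difference was 3.69 ± 0.39 (limma adjusted p = 1.50e-05), from an ES cell mean of 7.22 that lay just below background. Cartpt, at 8.51 and 8.78 in adult islets against 6.95 ± 0.07 (SD, n = 2) in ES cells, was at least 2.65-fold higher (adjusted p = 3.92e-04). This bound sets the adult islet mean over the background level, since no ES cell array exceeded it. Tac1, at 9.23 and 9.24 in adult islets against 7.16 and 6.98 in ES cells, was at least 3.99-fold higher (adjusted p = 1.06e-05). Nptx2 read 8.55 and 8.27 in adult islets and 8.62 and 8.95 in ES cells, a difference of -0.37 ± 0.25 (adjusted p = 0.26). Its values are the only ones of a tested member that were above background on every array of all 5 groups.

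**Figure D3:**
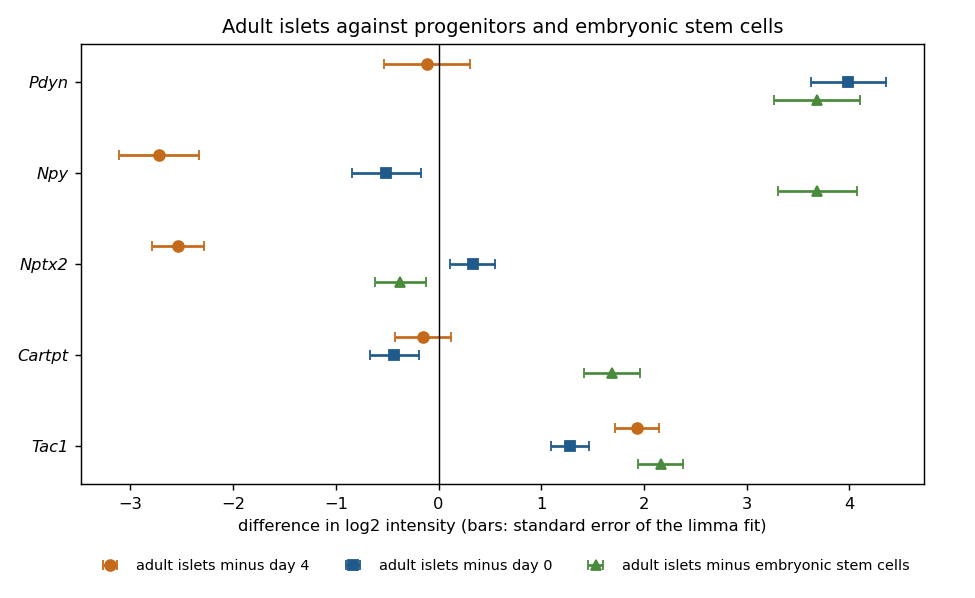
Difference in log2 intensity (horizontal axis) between adult islets and day 4 progenitors (circles), day 0 progenitors (squares) or ES cells (triangles) for the 5 tested members (vertical axis). Bars are the standard error of the limma fit. Adult islets are near day 4 for Pdyn and Cartpt, below it for Npy and Nptx2, and above it for Tac1.

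Set against day 4 progenitors, adult islets had lower levels of Npy and Nptx2 and a higher level of Tac1. For Npy, Nptx2 and Pdyn the day 4 arrays are among the values that chose them, so their differences are descriptions. Npy in adult islets differed from day 4 by -2.72 (log2) and Nptx2 by -2.53, and for both genes the adult arrays lay below all day 4 arrays. Pdyn, at 11.87 and 11.29 in adult islets and 11.79 and 11.59 at day 4, overlapped and differed by -0.11, or by 0.17 without adult islet replicate 2. Tac1, at 9.23 and 9.24 in adult islets against 7.19 and 7.41 at day 4, of which 1 array was above background, differed by 1.93 ± 0.22 (limma adjusted p = 1.68e-04). Cartpt differed by -0.15 ± 0.27 (adjusted p = 0.824). The call of Tac1 stands beside 14.5% of all genes called.

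Against day 0, Tac1 was higher in adult islets by 1.28 ± 0.19 (limma adjusted p = 4.13e-04), where 34.1% of all genes were called. Cartpt differed by -0.43 ± 0.24 (adjusted p = 0.189). For the other 3 the day 0 arrays had entered the choice. Pdyn in adult islets lay 3.99 above day 0 on its brighter probe and 1.20 above it on the dimmer one, with no overlap on either. Nptx2 and Npy, which rose on the way to day 4, had adult values that overlapped those of day 0, with differences of 0.33 and -0.51.

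Set against ES cells, day 0 progenitors already had Npy, Cartpt and Tac1. Cartpt was at least 3.57-fold higher at day 0 (limma adjusted p = 2.72e-05) and Tac1 at least 1.64-fold higher (adjusted p = 0.00232), where 49.3% of all genes were called. No ES cell array exceeded background for either, so both could pass the intensity filter only through groups in which they are high. These calls are therefore no result about the set. The 3 risers are again described only, as a low day 0 level was part of their choice. Npy had a mean of 11.41 at day 0, against 7.22 in ES cells, where 1 of 2 arrays was above background. Nptx2 differed by -0.70 with no overlap. Pdyn differed by -0.31, and this value rested on which ES cell array was kept: it was 0.39 without replicate 2 and -1.01 without replicate 1.

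Put in order of their group means, no 2 of the 5 tested members had the same profile. On its brighter probe Pdyn ran from day 4 through adult islets, day 1 and ES cells down to day 0, and the neighbours day 4 and adult islets, and ES cells and day 0, overlapped. Npy ran from day 4 through day 0, day 1 and adult islets to ES cells, with overlap among the middle groups. Nptx2 ran from day 4 through day 1, ES cells and adult islets to day 0, with overlap between day 4 and day 1 and between adult islets and day 0. Cartpt ran from day 1 through day 0, day 4 and adult islets to ES cells, and only ES cells did not overlap their neighbour. Tac1 ran from adult islets through day 0, day 1 and day 4 to ES cells, and the 3 middle groups overlapped from one to the next.

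Receptors of these peptides gave little signal. Of 16 listed receptors 15 were on the array and 5 passed the filter. Oprk1, the dynorphin receptor, was below background on all 13 arrays. Npy1r, a receptor of Npy, read 7.36 to 7.44 on the day 0 arrays and was below background on every other array. It was at least 1.12-fold lower at day 1 than at day 0 (limma adjusted p = 0.0245) and at day 4 than at day 0 (adjusted p = 0.0256). Npy1r passed the filter on dim probes only through the day 0 arrays, where it is high, and did not pass the stricter filter. Without day 0 replicate 1 or any 1 of the 3 day 1 arrays the call at day 1 was lost (adjusted p = 0.055 to 0.0921), and without either day 4 array that at day 4 was lost (adjusted p = 0.124 and 0.263). Npy1r was the only receptor called in the time course, and the median difference of the 5 receptors was -0.03 at day 1 against day 0, where that of all genes was 0.00. Adcyap1r1, the PACAP receptor, exceeded background on 3 arrays and passed in none of the 7 comparisons.

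Of 12 listed genes that cut and finish propeptides 8 were measured, and Pcsk2 and Cpe were not analysed here. At day 0 against ES cells 5 of the 8 were higher and 1 lower, beside the 49.3% of all genes called. At day 1 against day 0 limma called 0 of them (1 lower at an unadjusted p under 0.05). At day 4 against day 0 the glutaminyl cyclase Qpct was higher by 1.33 ± 0.20 (limma adjusted p = 0.00264). Scg5, which escorts the convertase Pcsk2, was higher by 0.94 ± 0.24 (adjusted p = 0.0281), a call lost without day 0 replicate 2 or either day 4 array (adjusted p = 0.0554 to 0.213). The other 6 did not pass, and the median of the 8 was 0.16, against -0.03 over all genes. The convertase Pcsk1 was dim, above background on 4 arrays, and passed in none of the time course comparisons. Those were 2 day 0 and 2 day 1 arrays. The probe was thus below background in adult islets, the positive control, and no lack or constancy of Pcsk1 is read from it. Pam, which amidates peptide ends, read 7.07 on day 0 replicate 3 and 7.40 on day 1 replicate 2, below all other progenitor arrays, and did not pass either. In adult islets against day 4, Pcsk1n, an inhibitor of Pcsk1, was higher by 1.60 ± 0.23 (adjusted p = 9.71e-04) and Qpct was lower (-1.05 ± 0.23, adjusted p = 0.0119), a call lost without either day 4 array or adult islet replicate 1 (adjusted p = 0.0696 to 0.103).

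Relatives and partners of Nptx2 gave few calls, and most were dim. Nptx1 was above background on 1 array and Nptxr, the membrane-bound neuronal pentraxin receptor, on none. Among 5 measured pentraxins and AMPA receptor subunits, the liver pentraxin Crp was lower at day 1 than at day 0 (-0.85 ± 0.15, limma adjusted p = 0.0112). That call was lost without day 1 replicate 3 (adjusted p = 0.0529, range over the alternatives 0.00253 to 0.065). At day 4 Crp was at least 1.75-fold lower than at day 0 (adjusted p = 0.00683, and 0.0678 and 0.0939 without day 4 replicate 1 or 2). The AMPA receptor subunit Gria3 was higher at day 4 than at day 0 by 0.68 ± 0.17 (adjusted p = 0.024), a call lost without either day 4 array (adjusted p = 0.178 and 0.173, range over the alternatives 0.0177 to 0.178). The median of the 5 at day 4 against day 0 was -0.02.

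Regulators tied to these genes in neurons were looked up in the same fit. Kcnip3 encodes DREAM, a calcium-sensitive repressor that binds the prodynorphin gene. Its level was 8.01 ± 0.42 (SD, n = 4) at day 0, 7.55 ± 0.23 (n = 3) at day 1 and 7.40 ± 0.0037 (n = 2) at day 4, and the difference between day 4 and day 0 did not pass (-0.60, limma adjusted p = 0.124). Rest, a repressor of neuronal genes, was below background on all 13 arrays. Of all genes, 4.37% were called in either direction at day 1 against day 0, and 11.4% at day 4 against day 0. Of 19 measured genes of the CREB, DREAM, REST and activity list, limma called 0 higher and 3 lower at day 1 than at day 0, with a median of -0.11. At an unadjusted p under 0.05, 1 was higher and 7 lower. The fallers were Fos (-3.74 ± 0.33, adjusted p = 1.49e-04), Fosb (-2.40 ± 0.39, adjusted p = 0.00661) and the growth factor Bdnf (-0.66 ± 0.10, adjusted p = 0.00633). The same 3 were lower at day 4 than at day 0, Fosb losing the call there without day 4 replicate 1 (adjusted p = 0.06, range over the alternatives 0.00175 to 0.06).

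Other peptide precursors were looked at to see how far the rise of the members extended. Of 50 listed precursors 42 were on the array and 23 were measured. At day 4 against day 0, 1 was higher and 2 were lower, beside 11.4% of all genes called, with a median of 0.01 against -0.03 over all genes. The riser was galanin, Gal, a neuropeptide that inhibits insulin release. It read 10.01 and 9.93 at day 4, against 8.41, 8.65, 8.85 and 8.88 at day 0, with no overlap. That is a difference of 1.27 ± 0.14 (limma adjusted p = 4.35e-04). Most of it lay after day 1, the difference between day 4 and day 1 being 1.04 ± 0.15 (adjusted p = 0.0106, lost without either day 4 array with adjusted p = 0.154 and 0.127, range over the alternatives 0.00652 to 0.154).

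The fallers were Gast and Cck, the gastrin and cholecystokinin precursors. Cck was lower at day 4 than at day 0 (-2.76 ± 0.24, limma adjusted p = 1.10e-04) and already at day 1 (-1.65 ± 0.21, adjusted p = 0.00156). Gast was lower at day 4 than at day 0 (-2.92 ± 0.35, adjusted p = 6.95e-04). At day 1 against day 0 the precursors of a natriuretic peptide, Nppb (at least 1.53-fold, adjusted p = 0.0178), and of neurotensin, Nts (at least 1.34-fold, adjusted p = 0.0383), were higher. Both were near background at day 4, and neither exceeded it on any day 0 array. Among the progenitors Nppb exceeded background only at day 1, the group in which it was called higher. The Nppb call was lost without day 1 replicate 2 or 3 (adjusted p = 0.0544 and 0.0849, range over the alternatives 2.36e-04 to 0.089). The Nts call was lost without any 1 of the 4 day 0, 2 day 4 or 2 adult arrays, or without day 1 replicate 2 or 3 (adjusted p = 0.0527 to 0.135).

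**Figure D4:**
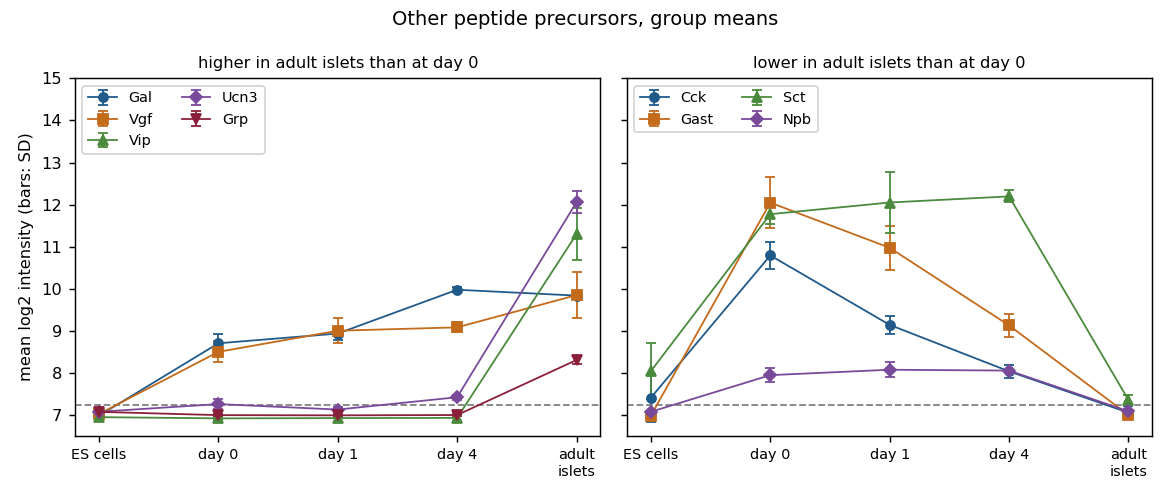
Mean log2 intensity (vertical axis, bars SD) by group (horizontal axis) of 9 other peptide precursors called between adult islets and day 0, higher in adult islets (left) and lower in them (right). Edn1, higher, and Avp, lower, were also called in that comparison and are not drawn. Gal is higher from day 4, Vip, Ucn3 and Grp stand out in adult islets only, the means of Cck and Gast are lower at each later stage and Sct stays high until day 4.

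In adult islets against day 4, 3 of the 23 precursors were higher and 4 lower, beside 14.5% of all genes called. Ucn3, urocortin 3 of mature beta cells, was higher by 4.64 ± 0.14 (limma adjusted p = 1.20e-08). Vip, a peptide of islet nerves, read 10.85 and 11.74 in adult islets and was below background on every other array, so it was at least 16.7-fold higher (adjusted p = 3.88e-07). Grp, another nerve peptide, was at least 2.09-fold higher (adjusted p = 8.42e-06). Vip passed the intensity filter only through the adult arrays, and no progenitor array exceeded background for Grp. Sct, the secretin precursor, was lower (-4.84 ± 0.41, adjusted p = 1.98e-05), and Gast at least 3.70-fold lower (adjusted p = 0.00496, and 0.0546 if day 4 replicate 1 was left out, with 1.31e-04 as the lowest value under any alternative). Npb was at least 1.75-fold lower (adjusted p = 0.00118). Cck was at least 1.73-fold lower (adjusted p = 0.0373), a call lost without day 0 replicate 1 or any 1 of the day 4 and adult arrays (adjusted p = 0.0512 to 0.215).

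In adult islets, where Tac1, Vip and Grp were higher than at day 4, 1 of 3 measured glia markers and 2 of 10 measured neuron markers were also called higher, beside 14.5% of all genes called in either direction. The summed level of the 8 Schwann and enteric glia markers on the array was 10.91 to 11.06 (log2) at day 0, 10.76 to 11.09 at day 1, 11.21 to 11.23 at day 4 and 12.23 to 12.42 in adult islets. Only Mbp, Ednrb and Ngfr of the 8 exceeded background, on every adult array among others, and S100b, Gfap, Foxd3, Cdh19 and Fabp7 were below it on all 13 arrays. Ednrb was higher in adult islets than at day 4 by 2.85 ± 0.35 (limma adjusted p = 3.20e-04), though endothelium and other cells use this receptor as well. The summed level of the 16 autonomic and enteric neuron markers was 11.50 to 11.72 at day 0, 11.45 to 11.54 at day 1, 11.40 to 11.62 at day 4 and 11.50 in adult islets, with Dbh, Chat, Slc18a3, Slc6a2 and Nefl below background on all 13 arrays. Of the others, Stmn2 was at least 2.19-fold higher in adult islets than at day 4 (adjusted p = 3.85e-04). Against ES cells Stmn2 was lower in adult islets (-2.38, limma adjusted p = 8.76e-07). The summed level of the 16 neuron markers was also higher in ES cells, at 11.82 to 12.01. Of the 10 measured neuron markers 4 were called higher in adult islets than in ES cells and 2 lower, beside 47.0% of all genes. Prph was at least 1.11-fold higher in adult islets than at day 4 (adjusted p = 0.0127), a call lost without either day 4 array or adult islet replicate 2 (adjusted p = 0.0644 to 0.114). No progenitor array exceeded background for Prph, which could thus pass the filter on dim probes only through adult islet or ES cell arrays. Nothing is therefore read from its call. The part of nerve and glia cells in the member values was not tested. Between day 4 and day 0, limma called 0 of 3 measured glia markers and 0 of 10 measured neuron markers higher. At an unadjusted p under 0.05 these counts were 1 and 0. Of all 10382 genes 560 were called higher, and 11.4% in either direction, so nothing is read from counts over so few markers. The only neuron marker called between day 4 and day 0 was Th, lower at day 4 (-0.74 ± 0.19, adjusted p = 0.0276, and lost without day 0 replicate 3 or either day 4 array with adjusted p = 0.0532 to 0.245).

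To show which genes had profiles like those of the 3 risers, Pearson correlations of log2 values over the 13 arrays were ranked among 3038 genes with an SD of at least 0.5. The arrays share 5 groups, so these values mostly compare group means and are descriptions. Pdyn was most like Atf5, a stress-responsive transcription factor (r = 0.95, Spearman rho 0.87). Next came the mitochondrial folate enzyme Aldh1l2 (r = 0.94, rho 0.62), the sphingolipid desaturase Degs1 (r = 0.93, rho 0.88) and the sterol enzyme Sqle (r = 0.92, rho 0.71). Npy was most like the membrane protein Igsf1 (r = 0.97, rho 0.86) and the histone gene H2bc12 (r = 0.97, rho 0.87). The respiratory complex I subunit Ndufa1 (r = 0.96, rho 0.75) and the pyrophosphate transporter Ank (r = 0.96, rho 0.77) followed. Nptx2 was most like Pcyt2 of phosphatidylethanolamine synthesis (r = 0.97, rho 0.92) and the muscle actin Acta1 (r = 0.94, rho 0.68). Hmgcs1 of sterol synthesis (r = 0.92, rho 0.88) and the fatty acid desaturase Fads1 (r = 0.90, rho 0.84) followed. No gene stood in more than 1 of the 3 lists. Within them, group means of Igsf1 were 9.93 at day 0, 10.09 at day 1 and 11.78 at day 4, and those of Atf5 were 8.60 at day 0, 10.61 at day 1 and 11.21 at day 4.

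**Figure D5:**
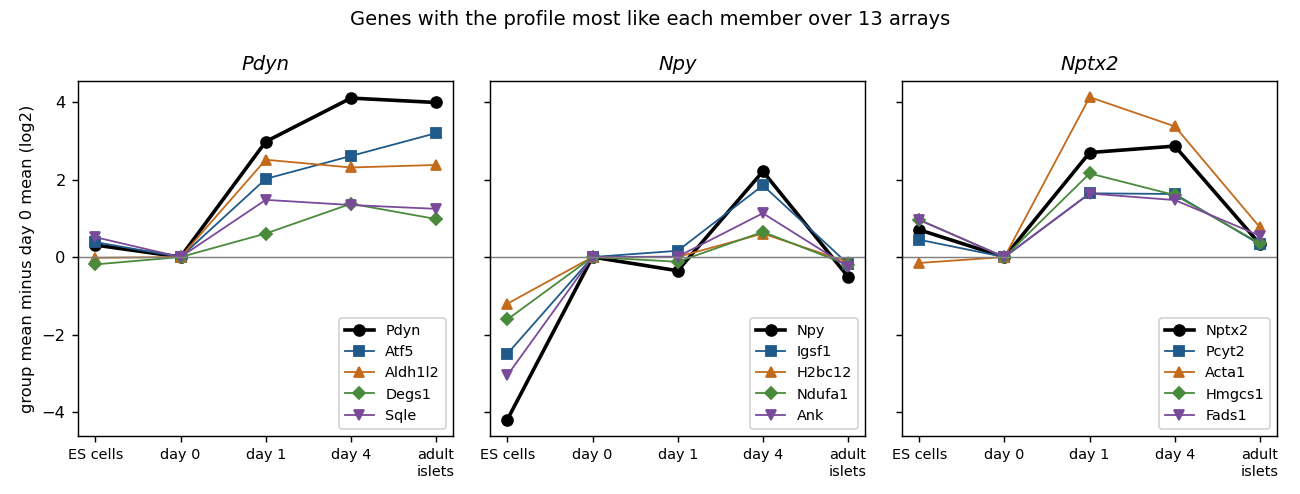
Group mean minus day 0 mean (vertical axis, log2) by group (horizontal axis) for Pdyn, Npy and Nptx2 (thick lines) and the 4 genes with the highest Pearson r to each over 13 arrays (thin lines). The Pdyn group stays high in adult islets, the Npy group is highest at day 4 and lowest in ES cells, and the Nptx2 group is high at day 1 and day 4.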

How the data were processed

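Per the labels' protocols, RNA extracted with Trizol was amplified to biotinylated cRNA (Illumina TotalPrep kit). The authors deposited log2 values, normalized between arrays; how is not given in the sources used here. Base 2 was inferred from the highest value, 15.20, and any variance-stabilising step, unknown here, would compress differences between dim probes. A table before normalization, with 26 columns whose names match no label, was not used.

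The background level of 7.24 lies 5 SD (0.052, from the values below the mode) above the mode, 6.98. Of 25697 probes 23978 name 1 gene and 1719 none. Probes above background on at least 2 arrays (14056 with a gene name) were kept, and the brightest per gene gave 10382 genes. In R 4.3.3, limma 3.58.1 (lmFit, eBayes) fitted 5 group means over all 13 arrays (residual degrees of freedom 8, prior 2.94). Calls are at Benjamini-Hochberg adjusted p under 0.05, over all genes. Differences are ± SE and levels ± SD. The fit was tested on simulated data. The number of arrays limits the precision.

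The members and the 7 gene lists were chosen with earlier results of these data known. Named are all members, up to 3 called risers and 3 called fallers per list and comparison, 11 receptors, relatives, regulators and enzymes wherever measured, and the 4 genes most like each riser. Npb and marker genes named as below background were added after their values were seen. Same-numbered replicates did not pair: of 21 pairs, 3 had a correlation of deviations over 0.1 (-0.31 to 0.29). The highest of all pairs across groups, 0.55, was between day 0 replicate 3 and day 1 replicate 2, whose numbers differ.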

Additional observations from a re-analysis of the deposited data

Results flagged for a closer look

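On the Cartpt probe ILMN_2719755, day 0 replicate 3 read 9.71, while the other 3 day 0 arrays read 8.82 to 8.92. Its gap to the nearest of them was 0.888 of the range of the group, above the critical value for 4 samples. The second Cartpt probe read 9.10 on the same array and 8.31 to 8.57 on the others. Of 8 member probes checked at day 0 this was the only one that stood out so, and chance gives about 1 in 20. Over all 14056 probes, such gaps numbered 111, 197, 283 and 188 for day 0 replicates 1, 2, 3 and 4.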

How the results depend on the processing

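Differences, gene counts, list counts and named genes were recomputed under 24 alternatives: no filter or a stricter filter on dim probes, the mean of a gene's probes, other scalings, subtraction of the background level, an intensity trend, a fit of the compared arrays alone, the replicate block, each array left out, and, chosen after seeing the data, day 0 replicate 3 and day 1 replicate 2 left out together. Of 840 member values 16 moved by more than the spread between arrays, and no tested member difference changed its side of the threshold. In 5 cases a small difference with no test changed sign when 1 array was left out. Day 4 against day 1 was -0.08 for Tac1, but 0.07 without day 1 replicate 1 and 0.03 without day 4 replicate 1. For Nptx2 it was 0.17, but -0.0020 without day 4 replicate 1. Adult islets against day 4 was -0.11 for Pdyn, but 0.17 without adult islet replicate 2. Day 0 against ES cells was -0.31 for Pdyn, but 0.39 without ES cell replicate 2. With the background level subtracted, the differences of Pdyn were 4.01 at day 1 and 5.19 at day 4 against day 0, those of Nptx2 3.32 and 3.50, and those of Tac1 -1.10 and -1.30. On the mean of its probes, Pdyn in adult islets lay 2.60 above day 0, against 3.99 on the brighter probe. Of 1176 list counts 104 moved by more than 1.5 times and 0 reversed. Of 107 calls of named list genes 72 held in every alternative and 0 reversed.

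Counts of called genes moved with the arrays used. With only the arrays of the compared groups they were 168 for day 1 against day 0, where all arrays gave 454, 14 for day 4 against day 1 (161) and 4066 for adult islets against day 4 (1501). Without day 0 replicate 3 and day 1 replicate 2, whose deviations correlated at 0.55, the count for day 1 against day 0 was 260. With 1 array left out, counts ran from 202 to 551 for day 1 against day 0 (202 and 243 without day 1 replicates 3 and 2, 287 without either day 4 array). They ran from 8 to 359 for day 4 against day 1 (8 and 12 without day 4 replicates 1 and 2, 37, 107 and 359 without day 1 replicates 3, 2 and 1). For day 4 against day 0 they ran from 193 to 1427 (193 and 217 without day 4 replicates 1 and 2). For adult islets against day 4 they ran from 675 to 1743 (695 and 675 without day 4 replicates 1 and 2, 859 and 781 without adult replicates 1 and 2). They ran from 1922 to 3823 for adult islets against day 0 (2048 and 1922 without adult replicates 1 and 2), from 4256 to 5202 for day 0 against ES cells, and from 3799 to 4980 for adult islets against ES cells. An array left alone in its group is assumed to vary like the others.

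With the replicate number as a block, counts were 235 for day 1 against day 0, 23 for day 4 against day 1 and 570 for day 4 against day 0. Same-numbered arrays share only a number, and no block result is read as a weaker effect. Signal near background limits Adcyap1, Tac1 in progenitors, the receptors and ES cell values.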

Other observations

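In adult islets against ES cells, 6 of the 23 measured precursors were higher and 2 lower, where 47.0% of all genes were called. Pyy, a peptide of the same family as Npy, was at 14.45 ± 0.10 (SD, n = 2) in adult islets and below background in ES cells, at least 149-fold higher (limma adjusted p = 3.89e-09). In the progenitors Pyy stood at 14.24 ± 0.37 (n = 4), 14.64 ± 0.20 (n = 3) and 14.36 ± 0.14 (n = 2) at days 0, 1 and 4, and was not called in any of the 3 comparisons between those days. These values lie near the top of the scale, where the highest value is 15.20. Trh, the precursor of thyrotropin-releasing hormone, was below background in adult islets, against 12.15 ± 0.30 (n = 2) in ES cells, and so at least 30.1-fold lower in adult islets (adjusted p = 6.63e-08).

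The activity gene Npas4 and the CREB family member Crem were higher in adult islets than at day 0, where Fos was lower. Npas4 was higher in adult islets than at day 4 by 2.62 ± 0.25 (limma adjusted p = 4.71e-05) and than at day 0 by 2.37 ± 0.21 (adjusted p = 1.52e-05). Crem was higher in adult islets than at day 0 by 1.74 ± 0.11 (adjusted p = 1.15e-06). Fos was higher in adult islets than at day 4 by 2.19 ± 0.43 (adjusted p = 0.0059, lost without day 4 replicate 2 or adult islet replicate 1 with adjusted p = 0.0622 and 0.0612) but lower than at day 0 (-1.92 ± 0.37, adjusted p = 0.00257, and 0.0514 without adult islet replicate 2).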
